A study of Arabidopsis thaliana with 57 samples.

Results

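The SIAMESE family of Arabidopsis was followed through 57 RNA-seq libraries of sorted stomatal lineage cells as the 9 rows of the count table with the identifiers of SIAMESE (SIM, AT5G04470) and SIAMESE-RELATED 1 to 8 (SMR1, AT3G10525; SMR2, AT1G08180; SMR3, AT5G02420; SMR4, AT5G02220; SMR5, AT1G07500; SMR6, AT5G40460; SMR7, AT3G27630; SMR8, AT1G10690). These are 9 of 27655 genes in the table, taken by identifier, with earlier results of these data known when they were chosen. All 9 had reads in every library and all 9 passed the filter on low counts over the 57 libraries, as did 25301 genes in all.

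SIM and SMR proteins are small plant inhibitors of the cell cycle. They bind complexes of cyclin-dependent kinases (CDKs) with cyclins and block them, and many of them push cells from dividing into endoreduplication, in which DNA is copied without division. SIM is known for keeping trichomes single-celled, SMR1 (also called LGO) for the giant cells of sepals, SMR5 and SMR7 for the arrest that follows DNA damage or oxidative stress through the transcription factor SOG1, and SMR4 for slowing the cycle in the stomatal lineage, where the bHLH factor MUTE induces it. In that lineage SPEECHLESS (SPCH) starts the asymmetric divisions of meristemoids and FAMA, with the MYB factors FLP and MYB88, ends division after the guard mother cell has split into 2 guard cells.

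All libraries came from Col-0 seedlings of 5 transgenic lines that shared a driver, GR-LhG4 expressed from the FAMA promoter, which enters the nucleus on dexamethasone (DEX) and switches on a Venus-tagged protein behind an OP promoter. The OP protein was FAMA (11 libraries), SPCH (12), either factor joined to the SRDX repression domain (SRDX-FAMA, 12, and SRDX-SPCH, 11), or a nuclear-localized Venus as the control (NLS, 11). Seedlings 10 days after germination were kept in 30 µM DEX for 2, 3 or 4 h, NLS included, so that each line has 3 or 4 libraries a time point, and Venus-positive protoplasts were sorted. The promoter is active in late guard mother cells and guard cells and in some myrosin cells. The study raised that Venus was of unlike brightness in NLS and in the SPCH and FAMA lines, so that the NLS sort may have held more weakly fluorescent cells; a difference from NLS and another mix of sorted cells cannot be told apart here. Whether a line is 1 transformant, and whether libraries came from separate plantings, is not given in the sources used here, so p-values measure the spread between these libraries.

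Total counts ran from 7296381 to 60348384 with a median of 33317326. The library labelled SRDX-FAMA 4 h replicate 2 went against its label: it held 9663 CPM of SPCH (CPM being counts scaled to library size) and 345 CPM of FAMA, against 14.4 to 43.9 CPM of SPCH and 2181 to 6172 CPM of FAMA in the other 11 SRDX-FAMA libraries. FAMA 3 h replicate 3 held 280 CPM of SPCH, against 5.61 to 25.3 CPM in the other 10 FAMA libraries. Results of these lines are therefore also given without that library where it matters. Of the 9 guard cell, 6 meristemoid and guard mother cell, 3 myrosin cell, 4 mesophyll, 3 trichome and 2 phloem markers, none was at 0 in all libraries of a line. The summed level of the guard cell markers was 504 to 1836 CPM and that of the myrosin cell markers 12468 to 84128 CPM. The latter sum rested mostly on TGG1, with a median of 37794 CPM, against 3239 for TGG2 and 41.4 for MVP1. Whether these reads came from myrosin cells was not tested.

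The sequence before the start is shown for SMR7 and SIM, members whose levels differed between lines, because SPCH and FAMA are bHLH factors that bind E-boxes (CANNTG). Windows of 250 bases before the annotated start were read by locus identifier from the RefSeq genome TAIR10.1. The E-box, on both strands, was in 55.3% of 27443 windows of all genes, the SOG1 motif (CTT and AAG with 7 bases between them) in 9.71%, and the E2F motifs TTTCCCGC and TTTGGCGC in 0.619% and 0.361%. A match is a description of the letters and not a site of binding.

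SMR7 had 1 E-box, 1 SOG1 motif and 1 E2F motif in its window, and SIM had 2 E-boxes. Neither window overlaps another gene, and both are printed whole on the minus strand of TAIR10.1. Capitals mark the bases that each motif fixes, with both central bases of an E-box included:
SMR7, chr3:10231568-10231817: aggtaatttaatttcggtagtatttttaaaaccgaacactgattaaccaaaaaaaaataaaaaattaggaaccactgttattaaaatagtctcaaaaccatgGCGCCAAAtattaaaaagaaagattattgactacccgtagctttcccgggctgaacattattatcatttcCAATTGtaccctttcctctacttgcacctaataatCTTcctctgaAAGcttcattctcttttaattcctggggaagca
SIM, chr5:1267417-1267666: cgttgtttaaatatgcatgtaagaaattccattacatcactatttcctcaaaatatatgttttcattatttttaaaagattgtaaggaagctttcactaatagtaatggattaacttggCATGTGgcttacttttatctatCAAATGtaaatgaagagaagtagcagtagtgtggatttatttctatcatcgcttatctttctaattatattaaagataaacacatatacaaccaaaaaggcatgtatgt

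Of the other members, SMR1 had 2 E-boxes that share bases, at 202 and 200 bases before the start, and SMR2 had 4. SMR4 had 1 SOG1 motif, SMR6 had 3 E2F matches and SMR3 had no match in its window. In the SMR6 window 205 bases lie in another gene, AT5G06065, and 137 of the window's bases lie in its exons.

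Within the family SMR8 and SMR5 held most of the signal per length. Over the 57 libraries the level per kilobase of gene model was 30.8 ± 9.99 CPM per kb for SMR8 and 19.2 ± 9.03 for SMR5 (SD, n = 57). SIM followed with 4.58 ± 1.99 CPM per kb, SMR6 with 3.71 ± 1.73, SMR1 with 2.58 ± 1.60, SMR4 with 2.33 ± 0.896 and SMR3 with 1.76 ± 0.660. SMR7, at 0.603 ± 0.397 CPM per kb, and SMR2, at 0.350 ± 0.157, were lowest. SMR8 and SMR5, SMR5 and SIM, and SMR3 and SMR7 were neighbours in this order that differed by more than the SD of either, and SMR7 and SMR2 differed by more than the SD of SMR2 alone. The other neighbours lay within the SD of each. The level of SMR5 per kb rests on a model of 266 bases that begins at the coding start, and is the least certain. All of these bases also overlap another gene, AT1G07510. Without division by length the means were 28.6 CPM for SMR8, 5.09 for SMR5, 4.51 for SMR6 and 3.63 for SIM. The lead of SMR5 over SMR6 and SIM thus rests mostly on its short model.

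The order moved little between lines. SMR5 stood at 10.1 CPM per kb in NLS, where SMR8 stood at 33.7, whereas in FAMA the mean level was 23.1 CPM per kb for SMR5 and 22.8 for SMR8, a difference within their SDs of 8.14 and 6.80. Summed over the 9 members, the level was 59.3 ± 8.09 CPM per kb in NLS, 54.7 ± 9.01 in SPCH, 63.0 ± 10.6 in FAMA, 76.4 ± 10.5 in SRDX-SPCH and 75.8 ± 9.42 in SRDX-FAMA (SD, n = 11 or 12). The share of SMR8 in that sum was 56.8% in NLS and 36.2% in FAMA, with SPCH at 42.3%, SRDX-FAMA at 48.2% and SRDX-SPCH at 50.3%. These sums are a description and were not tested. They and the shares of SMR8 include the level of SMR5 per kb, and so carry its uncertainty.

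**Figure D1:**
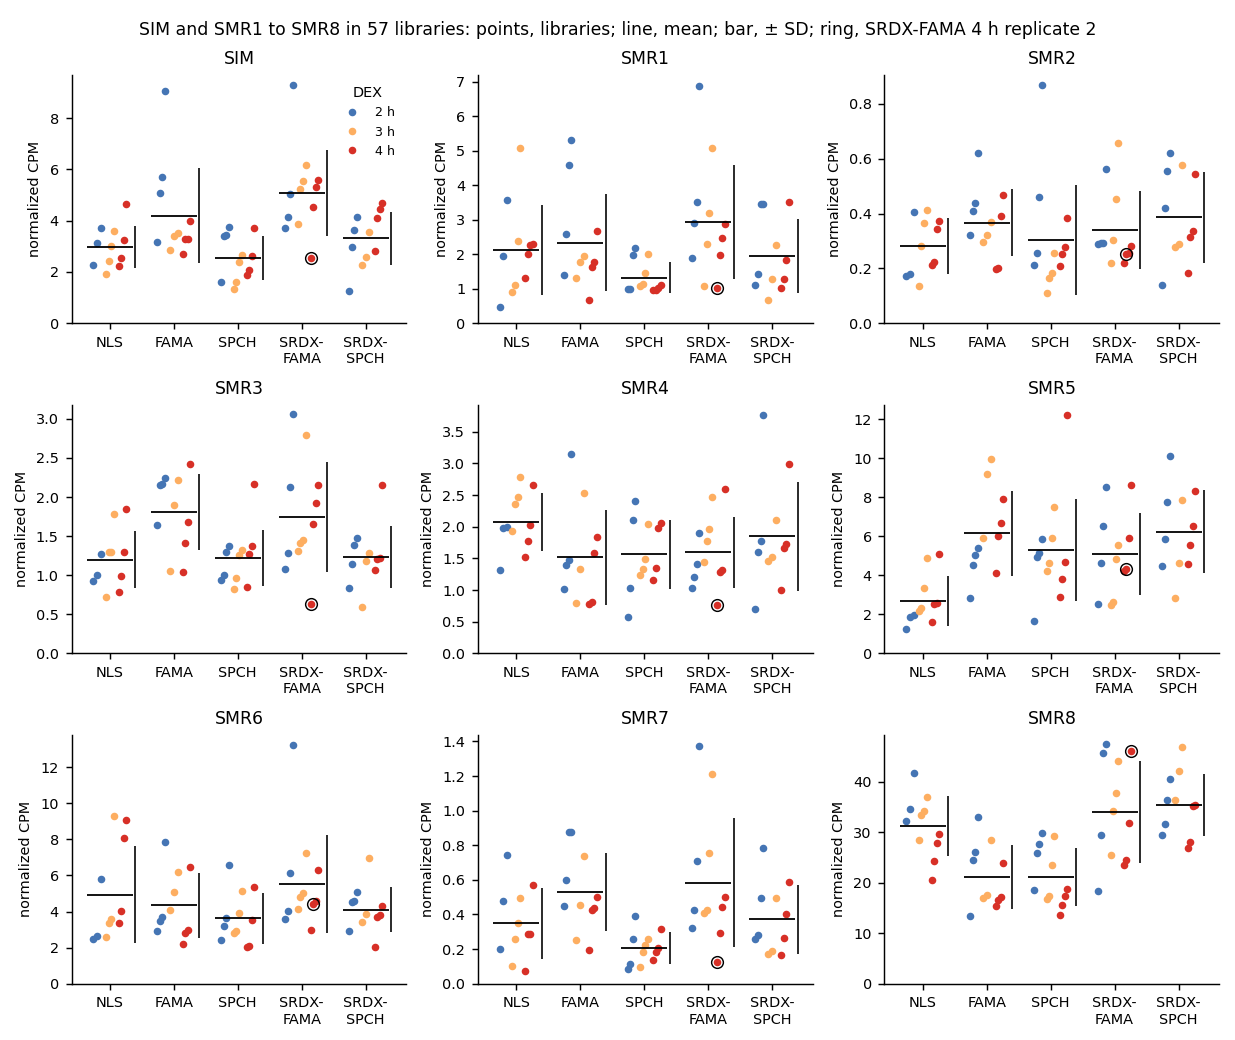
Normalized CPM (y axis) of each of the 9 members in the 57 libraries by line (x axis); points are libraries coloured by hours in DEX, the line is the mean, the bar ± SD, and the ring marks the library labelled SRDX-FAMA 4 h replicate 2. SMR5 lies lowest in NLS, with a median of 2.33 CPM, and SMR8 lies lower in FAMA and SPCH, with medians of 17.5 and 18.7 CPM, than in the other 3 lines.

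SMR5 was higher in FAMA, SPCH and SRDX-SPCH than in NLS. In NLS it was at 1.97, 1.88 and 1.26 CPM at 2 h, at 2.17, 2.33, 3.34 and 4.90 CPM at 3 h, and at 2.58, 2.53, 1.59 and 5.11 CPM at 4 h. In FAMA its lowest, median and highest levels were 2.84, 5.89 and 9.95 CPM. All 11 FAMA libraries were above the NLS median of 2.33 CPM and 7 were above the highest NLS library, so the groups overlapped in part. The log2 fold change, FAMA over NLS, was 1.27 (SE 0.196, edgeR adjusted p = 0.000112). SMR5 and SMR8 were the 2 of 9 members called in this comparison, against 7.42% of the 24366 genes tested. Of these genes 476 were called higher and 1332 (5.47%) lower.

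In SPCH the lowest, median and highest SMR5 levels were 1.69, 4.83 and 12.2 CPM. Of the 12 libraries 11 were above the NLS median and 5 above the NLS maximum. This gave a log2 fold change over NLS of 1.04 (SE 0.255, edgeR adjusted p = 0.0122). Here too SMR5 and SMR8 were the members called, 2 of 9, against 6.84% of 24611 genes. Of these genes 668 were called higher and 1016 (4.13%) lower.

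The SRDX lines showed SMR5 at similar levels. SRDX-SPCH libraries held 2.86, 5.86 and 10.1 CPM (lowest, median and highest), and all 11 were above the NLS median. Over NLS the log2 fold change was 1.26 (SE 0.25, edgeR adjusted p = 0.00615), and SMR5 was the 1 member called against 2.67% of 24480 genes. SRDX-FAMA libraries held 2.51, 4.76 and 8.63 CPM, with all 12 above the NLS median. There it was 0.94 on the log2 scale (SE 0.261) and missed the threshold (edgeR adjusted p = 0.0592). Without the library labelled SRDX-FAMA 4 h replicate 2, which held 4.31 CPM, it was 0.98 (SE 0.268, edgeR adjusted p = 0.046) and passed.

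Between a factor and its SRDX form SMR5 was not called. The log2 fold change was 0.24 (SE 0.227, edgeR adjusted p = 0.584) for FAMA over SRDX-FAMA and -0.24 (SE 0.246, edgeR adjusted p = 0.657) for SPCH over SRDX-SPCH. For SPCH over FAMA it was -0.19 (SE 0.221, edgeR adjusted p = 0.894). The 4 comparisons with NLS share the same 11 control libraries, which were the lowest for this gene. Fewer cells of a type and less RNA per cell cannot be told apart in such bulk samples, for this gene or any other.

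SMR8 was lower in FAMA and in SPCH than in NLS, while its difference in the SRDX lines did not pass. Its NLS libraries were at 34.5, 32.2 and 41.8 CPM at 2 h, at 33.3, 28.5, 34.1 and 36.9 CPM at 3 h, and at 20.5, 24.3, 27.9 and 29.7 CPM at 4 h. In FAMA the lowest, median and highest levels were 13.3, 17.5 and 33.1 CPM, with 10 of 11 libraries below the NLS median of 32.2 CPM and 6 below the NLS minimum. SMR8 fell by 0.57 on the log2 scale against NLS (SE 0.129, edgeR adjusted p = 0.00609). Without FAMA 3 h replicate 3, SMR8 in FAMA over NLS gave -0.53 (edgeR adjusted p = 0.0165) and SMR5 gave 1.25 (edgeR adjusted p = 0.000265).

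In SPCH the SMR8 levels were 13.5, 18.7 and 29.9 CPM (lowest, median and highest). All 12 libraries lay below the NLS median and 7 below the NLS minimum. SMR8 fell by 0.59 on the log2 scale (SE 0.101, edgeR adjusted p = 0.000451), and SPCH over FAMA gave 0.00 (SE 0.139, edgeR adjusted p = 0.999). A p that misses the threshold does not show equal levels, and the SE gives the size of the difference that could have been missed.

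In the SRDX lines SMR8 stayed near the control. SRDX-FAMA libraries held 18.3, 33.0 and 47.5 CPM (lowest, median and highest) and SRDX-SPCH libraries 26.9, 35.4 and 46.8 CPM. Over NLS the log2 fold change was 0.11 (SE 0.143, edgeR adjusted p = 0.878) for SRDX-FAMA and 0.20 (SE 0.0913, edgeR adjusted p = 0.359) for SRDX-SPCH.

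The direct comparisons of a factor with its SRDX form called SMR8 alone. FAMA over SRDX-FAMA gave a log2 fold change of -0.71 (SE 0.173, edgeR adjusted p = 0.00693), with 10 of 11 FAMA libraries below the SRDX-FAMA median. Without the library labelled SRDX-FAMA 4 h replicate 2, which held 46.0 CPM, it was -0.63 (SE 0.168, edgeR adjusted p = 0.0143). SPCH over SRDX-SPCH gave -0.77 (SE 0.113, edgeR adjusted p = 0.000146), with 9 of 12 SPCH libraries below the lowest SRDX-SPCH library. Of all genes 13.1% of 24396 were called between FAMA and SRDX-FAMA, 8.82% as lower, and 11.6% of 24640 between SPCH and SRDX-SPCH, 5.38% as lower, so 1 of 9 members is close to the background.

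**Figure D2:**
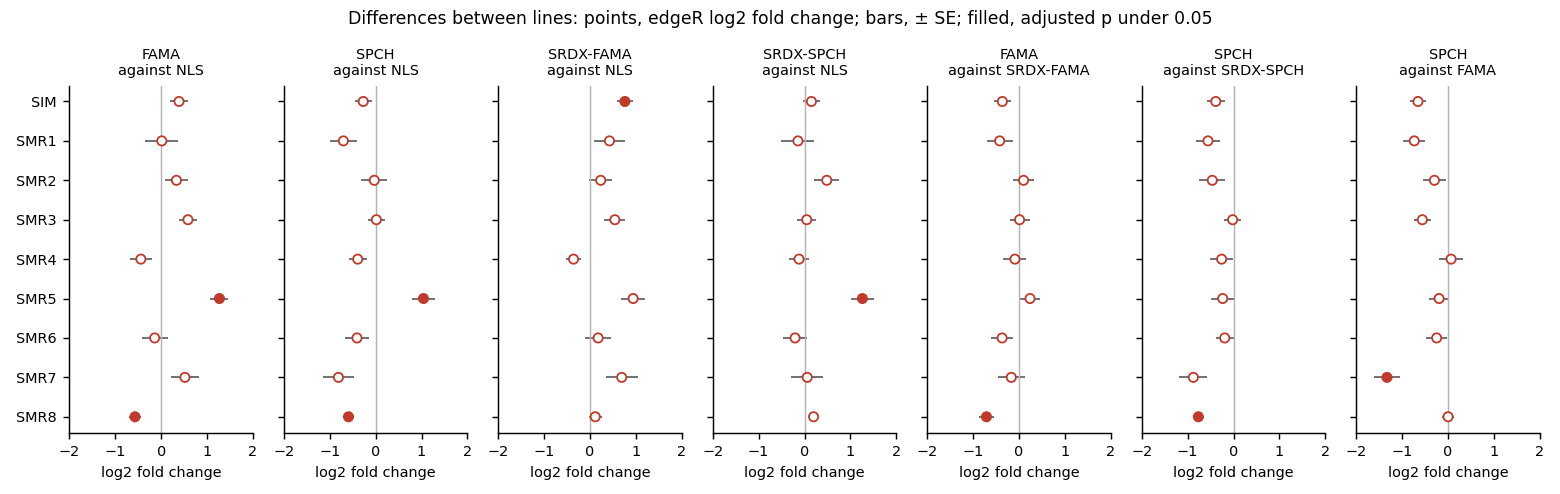
Log2 fold change (x axis) of each member (y axis) in the 7 comparisons between lines, 1 panel each; points are edgeR estimates, bars ± SE, and filled points have an adjusted p under 0.05. SMR5 lies to the right in all 4 comparisons with NLS, 3 of them filled, and SMR8 lies to the left in 4 panels, those of FAMA or SPCH against NLS or against their SRDX forms.

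SIM, the trichome gene, was called in SRDX-FAMA against NLS. Its NLS libraries held 1.93, 3.02 and 4.66 CPM (lowest, median and highest) and its SRDX-FAMA libraries 2.54, 5.15 and 9.30 CPM. Of the 12 SRDX-FAMA libraries 11 were above the NLS median and 7 above the NLS maximum. SIM was higher by 0.76 on the log2 scale (SE 0.181, edgeR adjusted p = 0.0229). It was the 1 of 9 members called, against 2.25% of 24327 genes in either direction. With 20 counts, the library labelled SRDX-FAMA 4 h replicate 2 held the lowest level, and without it the log2 fold change was 0.83 (SE 0.171, edgeR adjusted p = 0.00604).

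In the other lines SIM did not pass. Its level was 2.71, 3.40 and 9.04 CPM in FAMA, 1.34, 2.51 and 3.75 CPM in SPCH, and 1.25, 3.56 and 4.67 CPM in SRDX-SPCH (lowest, median and highest). The log2 fold changes over NLS were 0.39 (SE 0.187, edgeR adjusted p = 0.262), -0.27 (SE 0.183, edgeR adjusted p = 0.481) and 0.15 (SE 0.181, edgeR adjusted p = 0.868). SPCH over FAMA gave -0.65 (SE 0.182) at an edgeR adjusted p of 0.078.

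SMR7, the DNA damage-responsive member, was the gene called between SPCH and FAMA. Its levels were low, with 1 to 56 counts a library. FAMA libraries held 0.197, 0.455 and 0.879 CPM (lowest, median and highest) and SPCH libraries 0.0859, 0.197 and 0.392 CPM. All 12 SPCH libraries were below the FAMA median and 6 below the FAMA minimum. The log2 fold change, SPCH over FAMA, was -1.33 (SE 0.281, edgeR adjusted p = 0.0127), and 1 of 9 members was called against 1.57% of 24549 genes. Of these genes 175 were called lower and 210 (0.855%) higher. Without FAMA 3 h replicate 3 it was -1.25 (edgeR adjusted p = 0.0257).

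Against NLS, at 0.0712, 0.288 and 0.744 CPM (lowest, median and highest), SMR7 passed in no line. In FAMA the log2 fold change was 0.52 (SE 0.31, edgeR adjusted p = 0.407) and in SPCH -0.81 (SE 0.331, edgeR adjusted p = 0.161). Only with a block by the letter ending the library name did SMR7 pass in SPCH (edgeR adjusted p = 0.0311). SPCH over SRDX-SPCH gave -0.87 (SE 0.306, edgeR adjusted p = 0.0663). The SRDX-FAMA libraries, at 0.127 to 1.37 CPM, and the SRDX-SPCH libraries, at 0.168 to 0.786 CPM, overlapped all other lines.

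When SPCH was compared with FAMA within 1 time point, no member was called. At 2, 3 and 4 h edgeR called 0.00881%, 0.0133% and 0.00892% of genes, which is 2, 3 and 2 genes, whereas DESeq2 called 160 of 21590, 154 of 18924 and 92 of 23187. Of 24 member values 0 passed in edgeR (6 at an unadjusted p under 0.05), with a lowest adjusted p of 0.556, and DESeq2 called 0 of the 25 to which it gave an adjusted p. SMR2 and SMR7 fell below the filter at 3 h and SMR2 at 4 h.

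The remaining members were not called between any lines by edgeR, while DESeq2 called SMR3 as higher in FAMA than in NLS and as lower in SPCH than in FAMA. SMR1, the sepal giant cell gene, stood at 2.12 ± 1.30 CPM in NLS, 2.34 ± 1.42 in FAMA, 1.33 ± 0.461 in SPCH, 1.94 ± 1.07 in SRDX-SPCH and 2.94 ± 1.66 in SRDX-FAMA (SD, n = 11 or 12), within a whole range of 0.485 to 6.89 CPM. Its lowest value against NLS was a log2 fold change of -0.70 in SPCH (SE 0.291, edgeR adjusted p = 0.168). SMR3 had medians of 1.27 CPM in NLS and 1.90 in FAMA, and a log2 fold change of 0.58 (SE 0.202, edgeR adjusted p = 0.087). DESeq2 gave SMR3 0.57 here (adjusted p = 0.0299) and -0.59 for SPCH over FAMA (adjusted p = 0.0295). SMR4, the stomatal lineage member, had medians of 2.00 CPM in NLS and between 1.39 and 1.66 in the other 4 lines. Its log2 fold change over NLS was -0.44 in FAMA (SE 0.232, edgeR adjusted p = 0.32) and -0.39 in SPCH (SE 0.2, edgeR adjusted p = 0.299).

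SMR6 ran from 2.01 to 13.2 CPM over all libraries, with medians of 3.56 CPM in NLS, 3.70 in FAMA and 3.34 in SPCH. SMR2 was the least abundant, at 1 to 31 counts a library and medians of 0.255 to 0.370 CPM. The log2 fold changes of SMR2 and SMR6 over NLS lay between -0.41 and 0.48 in the 4 lines. Counts this low limit what could be detected for SMR2 and SMR7.

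Over the 9 members the median log2 fold change against NLS was 0.33 in FAMA, 0.42 in SRDX-FAMA, -0.39 in SPCH and 0.06 in SRDX-SPCH, while the median of all genes tested lay between -0.01 and 0.04. For SPCH over SRDX-SPCH it was -0.39, with 9 of 9 members below 0, beside a median of -0.01 over all genes. For FAMA over SRDX-FAMA it was -0.17 and for SPCH over FAMA -0.30, each beside 0.01 over all genes. These comparisons share libraries. Of the 63 member values in the 7 comparisons edgeR called 9, and DESeq2 called 13 of the 53 to which it gave an adjusted p. Among all genes tested edgeR called between 1.57% (SPCH against FAMA) and 13.1% (FAMA against SRDX-FAMA) in these comparisons.

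For 3 members an opposite-strand gene overlaps the model, and whether counting used strand is not given in the sources used here. If it did not, or if the libraries themselves did not keep strand, the reads of such a pair cannot be told apart. All 266 bases of SMR5 lie in the non-coding part of an exon of AT1G07510, which encodes FTSH protease 10, a mitochondrial protease. SIM shares 338 of its 792 bases with AT5G04475 and SMR1 shares 375 of its 826 bases with AT3G10527, both uncharacterized.

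AT1G07510 was far more abundant than SMR5 and moved less as a fold change, but more in CPM. Its mean was 99.4 CPM in NLS, 114 in FAMA and 118 in SPCH. SMR5 had means of 2.70, 6.15 and 5.29 CPM in the same lines. Whether reads of AT1G07510 entered the SMR5 counts was not tested. The lowest, median and highest levels of AT1G07510 were 89.1, 97.2 and 118 CPM in NLS and 94.3, 114 and 128 CPM in FAMA. SPCH libraries ran from 93.2 to 149 CPM, SRDX-FAMA libraries from 84.2 to 127 and SRDX-SPCH libraries from 85.6 to 134. Over NLS its log2 fold change was 0.21 in FAMA (SE 0.0658, edgeR adjusted p = 0.0559) and 0.25 in SPCH (SE 0.0749, edgeR adjusted p = 0.0455), beside 1.27 and 1.04 for SMR5. In SRDX-FAMA it was 0.08 (edgeR adjusted p = 0.799) and in SRDX-SPCH 0.12 (edgeR adjusted p = 0.606).

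AT5G04475 followed SIM. Its median was 0.942 CPM in NLS, 1.50 in FAMA, 1.61 in SRDX-FAMA, 0.779 in SPCH and 1.11 in SRDX-SPCH, and its log2 fold change in SRDX-FAMA over NLS was 0.65 (SE 0.258, edgeR adjusted p = 0.226). AT3G10527 followed SMR1, with a log2 fold change of -0.81 in SPCH over NLS (SE 0.308, edgeR adjusted p = 0.127). Over the 57 libraries Pearson's r of log2 CPM was 0.86 for AT5G04475 with SIM, 0.83 for AT3G10527 with SMR1 and 0.68 for AT1G07510 with SMR5.

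**Figure D3:**
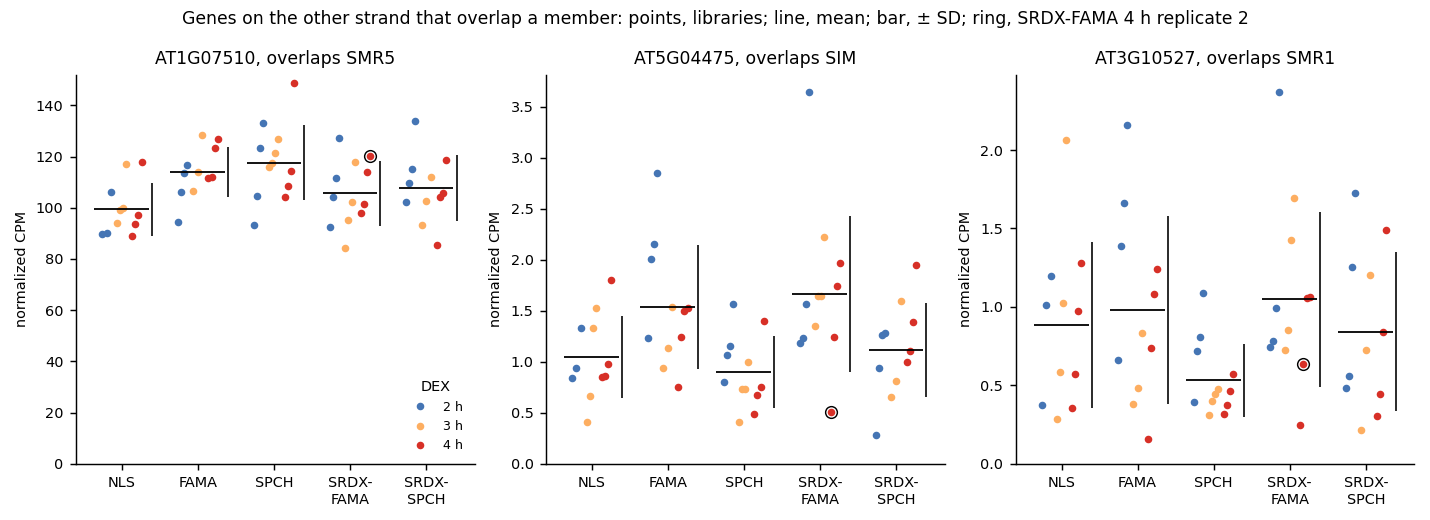
Normalized CPM (y axis) by line (x axis) of the 3 genes on the other strand that overlap a member; points are libraries, the line is the mean, the bar ± SD, and the ring marks the library labelled SRDX-FAMA 4 h replicate 2. AT1G07510, over SMR5, runs from 84.2 to 149 CPM with all lines overlapping.

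No member was called between time points in DEX. In the 15 contrasts between time points within a line 0 of 126 member values passed in edgeR (8 had an unadjusted p under 0.05, DESeq2 called 0 of the 126 to which it gave an adjusted p, and the lowest edgeR adjusted p was 0.225). Of all genes edgeR called 0% in 14 of these contrasts and 0.0042% in SRDX-SPCH at 4 h against 2 h. That background depends on the tool: DESeq2 called 1085 of 19471 genes in FAMA at 4 h against 2 h and 341 of 18406 at 3 h against 2 h, 173 of 17880 in SPCH and 93 of 17347 in SRDX-SPCH at 4 h against 2 h, and 0 to 5 in each of the other 11 contrasts. The test of whether a line's difference from NLS changed with time called 0 of 36 member values (0 at an unadjusted p under 0.05, and DESeq2 called 0), against 0% of all genes in each of the 4 lines.

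SMR8 had lower means at 4 h than at 2 h in all 5 lines, without passing. In NLS its mean was 36.2 CPM at 2 h, 33.2 at 3 h and 25.6 at 4 h, and 4 h over 2 h gave a log2 fold change of -0.52 (SE 0.156, edgeR adjusted p = 0.931). In SPCH the means were 25.5, 21.7 and 16.3 CPM and the log2 fold change -0.64 (SE 0.198, edgeR adjusted p = 0.455). SMR8 was lower in FAMA and SPCH than in NLS at each time point by these means, with FAMA at 24.2, 21.0 and 18.3 CPM.

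SMR5 means in NLS were 1.70, 3.18 and 2.95 CPM at 2, 3 and 4 h, below the other 4 lines at each time. FAMA stood at 4.45, 8.35 and 6.19 CPM, and 3 h over 2 h gave a log2 fold change of 0.91 (SE 0.275, edgeR adjusted p = 0.29). SIM in FAMA was at 9.04, 5.07, 3.16 and 5.70 CPM at 2 h and at 3.28, 4.00, 2.71 and 3.29 CPM at 4 h, a log2 fold change of -0.78 (SE 0.28, edgeR adjusted p = 0.225). The library at 9.04 CPM stood well above the rest.

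**Figure D4:**
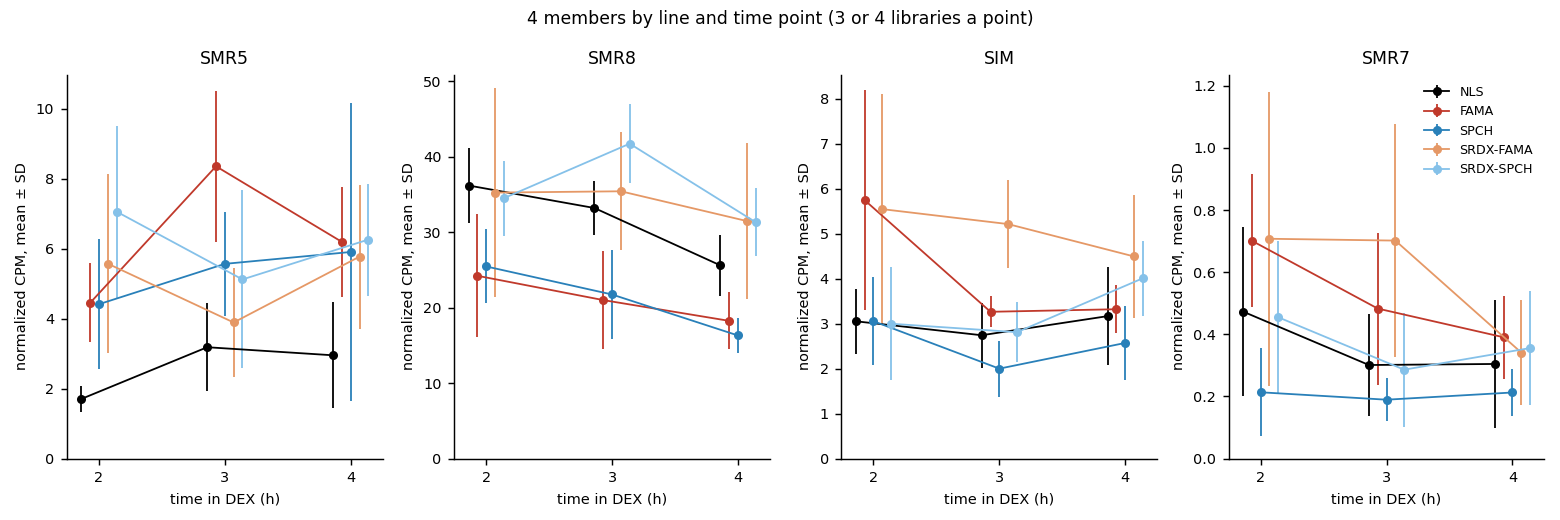
Mean normalized CPM with SD bars (y axis) of 4 members at 2, 3 and 4 h in DEX (x axis), 1 line per transgenic line and 3 or 4 libraries a point. NLS is the lowest line for SMR5 at each time, from 1.70 to 3.18 CPM, and SMR8 is lower at 4 h than at 2 h in all 5 lines.

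Of the genes of CDKs and cyclins, whose products SIM and SMR proteins act on, 7 to 15 of 23 were lower in FAMA, SPCH and SRDX-FAMA than in NLS. Of the 23 in the list 15 were lower and 0 higher in FAMA than in NLS, where 5.47% of all 24366 genes were lower. The median log2 fold change of the 23 was -1.14, beside 0.04 over all genes. The B-type CDKs, which drive the entry into mitosis, led. CDKB2;1 (AT1G76540) was at 19.8, 33.8 and 50.7 CPM in NLS and at 1.08, 2.78 and 5.03 CPM in FAMA (lowest, median and highest), groups that did not overlap. Its log2 fold change was -3.64 (SE 0.248, edgeR adjusted p = 8.71e-10). FAMA and NLS libraries did not overlap for 237 of the 24366 genes tested. CDKB1;1 (AT3G54180) fell by 2.89, CDKB1;2 (AT2G38620) by 2.69 and the A2-type cyclin CYCA2;2 (AT5G11300) by 2.33 on the log2 scale.

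In SPCH 13 of the 23 were lower than in NLS and 0 higher, where 4.13% of all 24611 genes were lower. The median log2 fold change of the 23 was -0.66. The study also found division genes among those lower than NLS in both lines, and did not expect this for SPCH. It reasoned that the unlike Venus signal could have skewed the NLS sort. For its target lists it used changes over time and SPCH against FAMA instead. CDKB2;1 was at 3.64, 9.14 and 16.9 CPM, below every NLS library, with a log2 fold change of -1.79 (SE 0.228, edgeR adjusted p = 1.34e-05). SPCH and NLS libraries did not overlap for 126 of the 24611 genes tested. SPCH over FAMA called 9 as higher and 0 as lower, where 0.855% of all 24549 genes were higher. CDKB2;1 was higher by 1.88 on the log2 scale (SE 0.266, edgeR adjusted p = 0.000533). SRDX-FAMA had 7 lower and 0 higher than NLS in edgeR (8 and 1 in DESeq2), where edgeR called 1.32% of all 24327 genes as lower. CDKB2;1 stood at -1.13 on the log2 scale (SE 0.189, edgeR adjusted p = 0.001). In SRDX-SPCH edgeR called 0 of 23 (6 at an unadjusted p under 0.05, and DESeq2 called 0), with a median log2 fold change of -0.26.

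**Figure D5:**
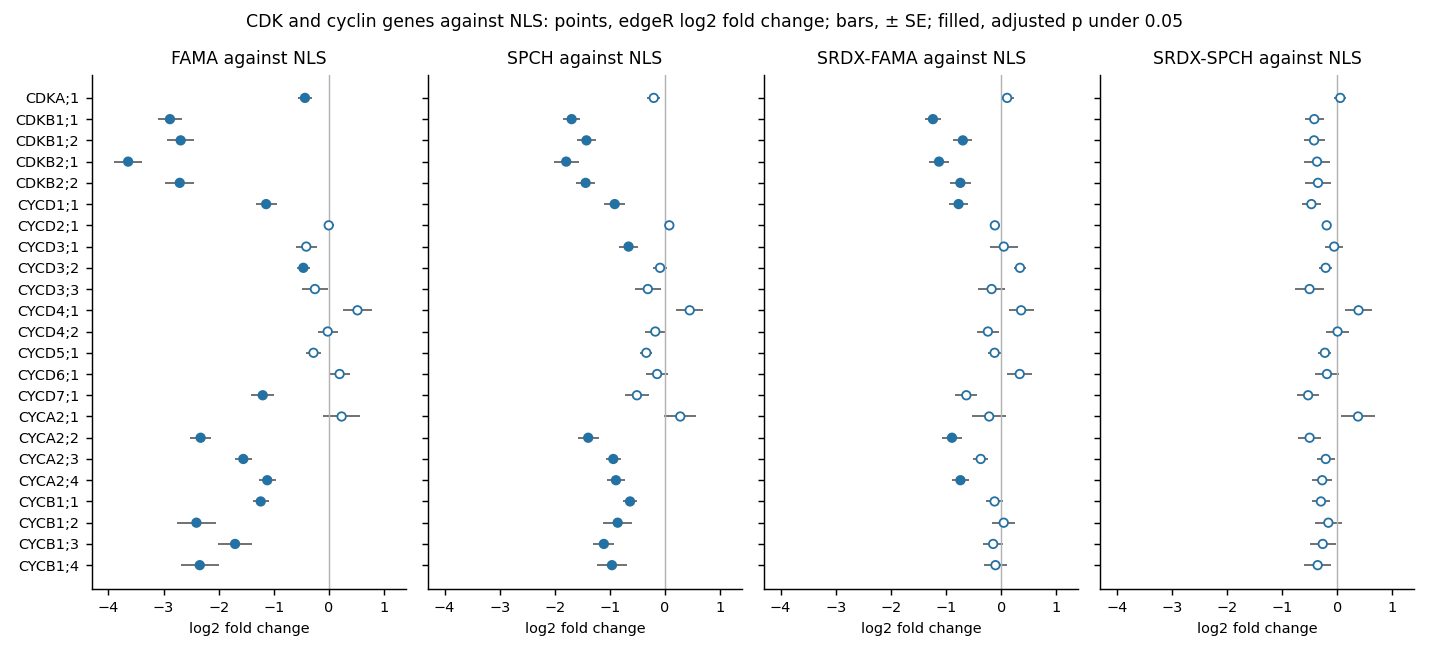
Log2 fold change over NLS (x axis) of 23 CDK and cyclin genes (y axis), 1 panel a line; points are edgeR estimates, bars ± SE, and filled points have an adjusted p under 0.05. Filled points are all on the left: 15 in FAMA, 7 in SRDX-FAMA, 13 in SPCH and 0 in SRDX-SPCH.

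The KRP genes encode the other family of CDK inhibitors in plants. Against NLS edgeR called 0 of 7 KRP genes in each of the 4 lines, with 1 at an unadjusted p under 0.05 in FAMA, 1 in SPCH and 0 in each SRDX line, while DESeq2 called KRP6 alone, as higher in SPCH. KRP6 (AT3G19150) was higher in FAMA than in SRDX-FAMA, with a log2 fold change of 0.27 (edgeR adjusted p = 0.0329), and in SPCH than in SRDX-SPCH, with 0.47 (edgeR adjusted p = 0.0024). No KRP gene was called between SPCH and FAMA (edgeR, 0 at an unadjusted p under 0.05, and DESeq2 called 0).

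Among 15 regulators known upstream of SIM or SMR genes and endocycle factors, 5 were lower and 1 higher in FAMA than in NLS. Of all 24366 genes tested 7.42% were called there, 5.47% as lower. FLP (AT1G14350) fell by 2.00 on the log2 scale (edgeR adjusted p = 8.66e-08), the APC/C activator CCS52B (AT5G13840) by 1.54 (edgeR adjusted p = 4.4e-07) and MYB88 (AT2G02820) by 0.92 (edgeR adjusted p = 4.19e-06). MUTE (AT3G06120), which induces SMR4, was lower in FAMA by -1.03 (edgeR adjusted p = 0.0118) and higher in SPCH than in FAMA by 1.16 (edgeR adjusted p = 0.021). SMR4 itself, for SPCH over FAMA, gave 0.07 (edgeR adjusted p = 0.98). RBR1 (AT3G12280), the retinoblastoma homologue, was higher in FAMA by 0.28 (edgeR adjusted p = 0.0153). The list had 4 lower and 2 higher in SPCH, 3 lower in SRDX-FAMA and 2 lower in SRDX-SPCH. Of all genes 6.84%, 2.25% and 2.67% were called in these comparisons with NLS, in the same order.

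SOG1 (AT1G25580), the DNA damage regulator above SMR5 and SMR7, was called by edgeR in no comparison between lines, with 2 at an unadjusted p under 0.05, while DESeq2 called it lower in SRDX-FAMA than in NLS. Its log2 fold change over NLS was -0.28 in SRDX-FAMA (edgeR adjusted p = 0.0864), -0.24 in FAMA (edgeR adjusted p = 0.113) and -0.13 in SPCH (edgeR adjusted p = 0.387). Of 8 DNA damage response genes 0 were called higher in FAMA or SPCH than in NLS by edgeR or DESeq2, although 3 had an unadjusted p under 0.05 in either direction in each line. XRI1 (AT5G48720) was lower in both, by -0.42 (edgeR adjusted p = 0.00274) and -0.36 (edgeR adjusted p = 0.0266), and PARP1 (AT2G31320) was lower in FAMA by -0.42 (edgeR adjusted p = 0.0257). In the SRDX lines 0 of 8 were called against NLS, with 1 at an unadjusted p under 0.05 in SRDX-FAMA and 0 in SRDX-SPCH, and DESeq2 called 0 in both.

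Markers of the sorted cells moved beside these differences, and their part in them was not tested. Meristemoid and guard mother cell markers summed to 161 to 277 CPM in NLS, 87.4 to 180 in FAMA, 96.2 to 231 in SRDX-FAMA, 102 to 305 in SPCH and 158 to 236 in SRDX-SPCH. Relative to NLS FAMA had 4 of 6 lower and SPCH had 2 of 6 lower, beside 5.47% and 4.13% of all genes. Myrosin cell markers summed to 23072 to 45386 CPM in NLS, 26038 to 67392 in FAMA and 45875 to 84128 in SPCH. Of the 3 markers 2 were called higher in SPCH than in NLS, where 6.84% of all genes were called in either direction. This sum rested mostly on TGG1, and whether the TGG1 reads came from myrosin cells was not tested. In SPCH against FAMA, where SMR7 was called, the myrosin cell markers TGG1 and TGG2 were higher by 0.58 (edgeR adjusted p = 0.0173) and 1.68 (edgeR adjusted p = 6.28e-05) on the log2 scale, and of the meristemoid and guard mother cell markers TMM was higher by 0.68 (edgeR adjusted p = 0.0379), as was MUTE. Guard cell markers summed to 795 to 1599 CPM in NLS and 504 to 1434 in SRDX-FAMA, where SLAC1 and SCAP1 were lower. Trichome markers, relevant to SIM, summed to 3.84 to 15.5 CPM in NLS and 4.06 to 10.0 in SRDX-FAMA, with 0 of 3 called by edgeR (0 at an unadjusted p under 0.05, and DESeq2 called 0).

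Across the 57 libraries the members fell into a loose group and single genes. Pearson's r of log2 CPM was 0.69 between SIM and SMR3, 0.61 between SIM and SMR1, 0.60 between SIM and SMR7 and 0.61 between SMR3 and SMR7. SMR5 had r between -0.26 and 0.16 with the other 8 members and SMR8 between -0.34 and 0.23. SMR1 had r = 0.80 with the summed phloem markers and SMR3 r = -0.66 with the summed meristemoid and guard mother cell markers, while SMR8 had r = 0.49 with the latter. SIM had r = -0.58 with the summed myrosin cell markers, -0.54 with the meristemoid and guard mother cell markers and 0.51 with the phloem markers, and SMR7 had r = -0.50, -0.54 and 0.43 with the same sums. SMR5 had r between -0.22 and 0.33 with the 6 sums. All points share line, time and library depth, so these values are descriptions.

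The genes most like a member in pattern were ranked by the same r over 57 libraries among 25301 genes. For SMR5 these were the F-box gene FBS1 (AT1G61340, r = 0.87), the small heat shock protein gene AT1G52560 (r = 0.86) and the DNAJ heat shock gene AT2G20560 (r = 0.84). AT1G52560 had a log2 fold change over NLS of 1.44 in FAMA (edgeR adjusted p = 0.000858) and 1.32 in SPCH (edgeR adjusted p = 0.003). For SMR8 they were TRM6 (AT3G05750, r = 0.89), AT5G40960 (r = 0.87) and the expansin gene EXPA9 (AT5G02260, r = 0.87). TRM6 was lower than NLS by -0.62 in FAMA (edgeR adjusted p = 0.00125) and -0.52 in SPCH (edgeR adjusted p = 0.00204).

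For SIM the first was AT5G04475, the gene that overlaps it, then RBK2 (r = 0.84) and AT5G60650 (r = 0.83). SMR7 had TBL3 (AT5G01360, r = 0.77), AT1G62981 (r = 0.76) and the ROP effector gene RIC4 (AT5G16490, r = 0.76), and RIC4 gave a log2 fold change of -1.28 in SPCH over FAMA (edgeR adjusted p = 0.0136). For SMR1 the first was HSPRO2 (r = 0.87), for SMR6 PBP1 (r = 0.84), for SMR4 PRX52 (r = 0.77) and for SMR3 AT5G07800 (r = 0.74). No gene reached r = 0.60 with SMR2.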

How the data were processed

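The authors aligned single-end reads of 57 libraries, made with a SMART-Seq kit from sorted protoplasts, to TAIR10 with STAR and counted them with HTSeq; tool versions, annotation release and strand setting are not given in the sources used here. The deposited table holds raw counts per gene, and reads of a transgene count on its endogenous gene. Of its columns 1, a FAMA 4 h library, carries no replicate number. Normalized CPM are counts scaled by TMM over the 57 libraries.

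Each comparison was fitted on its own libraries with edgeR 4.0.16 (R 4.3.3; filterByExpr with a minimum count of 10, TMM, quasi-likelihood F test, Benjamini-Hochberg adjustment over all genes tested, threshold 0.05), with time point as an additive term between lines. Called means an adjusted p under 0.05. The fit was tested on simulated data. Correlations used log2 CPM with a prior count of 2, except those with marker sums, which used the log2 of CPM plus 1. Named were all 9 members, the 3 genes nearest each in pattern, up to 4 genes a list with the smallest adjusted p in FAMA against NLS, and genes singled out by a count. Some pathway genes beyond that rule (MUTE, SOG1, RBR1, KRP6 and named markers) were chosen after their values were seen. Of 27655 identifiers 27445 matched the RefSeq gene table. Alternatives were DESeq2 1.42.0, its size factors in edgeR, 2 other filters, blocks by replicate number or by the letter ending the library name, 1 fit of all libraries, and each library left out. The members and lists were chosen with earlier results of these data known.

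Depth was 7296381 to 60348384 counts a library, and the number of libraries sets the precision of each fold change. Gene models and windows were read by identifier from RefSeq TAIR10.1, and no coordinate of the count table was used. The windows before SMR5 and SMR8 are not reported here.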

Additional observations from a re-analysis of the deposited data

Results flagged for a closer look

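Within the groups of 4 libraries of 1 line and time point, 7 of 108 sets of values had a library far from the other 3, where chance gives about 1 in 20. SIM was at 1.61 CPM in SPCH 2 h replicate 4, with the others at 3.41 to 3.75 CPM. SMR2 was at 0.562 CPM, 18 counts, in SRDX-FAMA 2 h replicate 2, against 0.289 to 0.294 CPM. SMR3 was at 1.64 CPM in FAMA 2 h replicate 2, against 2.16 to 2.24 CPM. It was also at 2.79 CPM in SRDX-FAMA 3 h replicate 4, against 1.31 to 1.45 CPM, and at 2.15 CPM in SRDX-SPCH 4 h replicate 3, against 1.07 to 1.23 CPM. SMR6 was at 7.88 CPM in FAMA 2 h replicate 2, against 2.93 to 3.70 CPM, and at 9.32 CPM in NLS 3 h replicate 3, against 2.57 to 3.56 CPM.

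Because lines share the NLS control, a direct comparison of 2 lines tests whether their differences from NLS differ. SMR8 differed by -0.71 on the log2 scale between FAMA and SRDX-FAMA and by -0.77 between SPCH and SRDX-SPCH. SMR7 differed by -1.33 between SPCH and FAMA.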

How the results depend on the processing

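All 9 called member values kept their direction and their call under each alternative that tested them. SRDX-FAMA against NLS, with 1 member called, gave 2 under DESeq2, under 1 fit of all libraries, under the filter of 10 counts in every library and under the block by library letter, and 1 to 2 with a library left out. The second was SMR5, also called without NLS 3 h replicate 4, NLS 4 h replicate 4, SRDX-FAMA 2 h replicate 4, 3 h replicate 1, 3 h replicate 4 or 4 h replicate 2 (adjusted p over its 30 alternatives 0.00706 to 0.129). SPCH against FAMA, with 1, gave 3 under DESeq2, which added SIM and SMR3, and 1 to 2 with a library left out. It gave 0 under the filter of 10 counts in every library, which left SMR7 untested. SPCH against SRDX-SPCH, with 1, gave 2 under the letter block and 1 to 2 with a library left out, the second being SMR7. With a library left out FAMA or SPCH against NLS gave 2 to 3. The third in FAMA was SMR3, called under DESeq2 and without FAMA 3 h replicate 1, FAMA 4 h replicate 3 or NLS 4 h replicate 1 (adjusted p over its 29 alternatives 0.0299 to 0.169). In SPCH it was SMR1 without NLS 2 h replicate 1 and SMR7 under the letter block (adjusted p = 0.0479 and 0.0311). In SPCH against FAMA SIM also passed without FAMA 2 h replicate 3 or SPCH 4 h replicate 1. Correlations of deviations averaged -0.194 to 0.13 over same-numbered libraries, the highest in SPCH against NLS, where 7 of 11 pairs were over 0.1, and -0.0247 to 0.282 over libraries sharing a letter, the highest in FAMA against SRDX-FAMA, where 7 of 8 were over 0.1. In no comparison were all pairs over 0.1, so by this rule neither was taken to pair the samples. The rule does not show that libraries sharing a letter were independent. In FAMA against SRDX-FAMA pairs not sharing a letter averaged -0.0734, beside 0.282, and in SPCH against SRDX-SPCH 0.00399, beside -0.0247. Under the letter block the genes called in all went from 1684 to 3930 in SPCH against NLS, from 547 to 1351 in SRDX-FAMA and from 653 to 1294 in SRDX-SPCH against NLS, and from 0 to 340 in FAMA at 4 h against 2 h. DESeq2 called 1175 and 1222 genes for the SRDX-FAMA and SRDX-SPCH comparisons with NLS and 625, against 385, in SPCH against FAMA. One fit of all libraries called 964 in SRDX-FAMA against NLS and 209 in FAMA at 4 h against 2 h, where the filter of 10 counts in every library called 64, and the replicate block called 211 in SPCH against FAMA. For the members, under the replicate block the counts were 2 in FAMA and SPCH against NLS, 1 in the other comparisons of lines, and 0 over time points and interactions. Of uncalled values 12 of 54 changed sign under an alternative between lines, 10 of 24 at single time points and 39 of 126 over time. The nearest genes by pattern rest on the measure: with Spearman's rho 16 of them stayed among the 3 nearest of their member. Low counts limit SMR2 and SMR7.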
